A study of Mus musculus with 8 samples.

Results

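Siglec1, Adgre1, Mertk, Axl, Csf1r, Cd5l, Msr1, Vcam1, Cd68 and Timd4 are 10 genes for proteins by which tissue macrophages are recognised and by which they bind other cells and debris. They were followed on 8 expression arrays through every probe set whose single gene symbol in the platform annotation was one of these names, which gave 20 probe sets of 45037 and 10 genes of 18193. The study concerned Aire-expressing cells outside the thymus, and its arrays held total RNA from mice, 2 arrays each of Aire-knockout spleen, Aire-wild-type spleen, Aire-knockout lymph node and Aire-wild-type lymph node, with the letter A or B on each array of a group. The labels give no strain, age, cell type or sorting step for any group, and they do not say what the letters stand for or how many animals an array holds. Spleen and lymph node therefore name the origin of the RNA, which need not be whole tissue.

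Tissue macrophages take up dying cells, particles and lipoproteins through surface receptors, and they depend on signals from the receptor for colony-stimulating factor 1, encoded by Csf1r. Siglec1 (sialoadhesin, CD169) binds sialic acid and marks macrophages of the splenic marginal zone and the lymph node sinuses, and Adgre1 encodes F4/80, an adhesion receptor of mouse macrophages. Mertk and Axl are receptor tyrosine kinases that bind phosphatidylserine on dying cells through bridging ligands such as Gas6, and Timd4 (Tim-4) binds phosphatidylserine directly. Msr1 is class A scavenger receptor 1, Cd5l is a secreted protein of the scavenger receptor cysteine-rich family, Cd68 is a glycoprotein of late endosomes and lysosomes, and Vcam1 is an adhesion molecule of endothelial cells, stromal cells and some macrophages.

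The samples were described by markers of the cell types that these organs hold. Ccr7 and Fscn1, genes of mature dendritic cells, had signals of 8241 to 14752 and 9491 to 12476 over the 8 arrays, and Zbtb46, a transcription factor of classical dendritic cells, had 2054 to 3591. The dendritic cell markers had a mean log2 signal of 8.06 to 8.81 over 8 measured genes, with Cd209a at the floor on all arrays. Other genes of this list were dimmer. Flt3 had 332 to 641, Itgax 77.2 to 282, Siglech 11.1 to 558 and Xcr1 9.58 to 52.1. The T cell markers had 5.78 to 7.53 over 5 measured genes and the B cell markers 5.08 to 8.13 over 5. Aire, the targeted gene, had 1009 and 2376 in knockout spleen, against 5037 and 5204 in wild-type spleen, and 791 and 1137 in knockout lymph node, against 3052 and 3535 in wild-type lymph node, and where its probe set lies relative to the deletion is not given in the labels. Knockout array A in spleen stood apart in its neutrophil markers, with a mean log2 signal of 9.06 over 7 genes, where the other 7 arrays had 3.61 to 5.13. The arrays of a group also differed in Xist, a transcript of the inactive X chromosome, with 5527 and 14.6 on knockout spleen arrays A and B, and the Y-linked gene Eif2s3y was at 21.2 or less on both wild-type A arrays and at 521 to 1988 on the others. Signals here are the deposited values after each array was shifted to a common median, and signals under 9.58 were raised to that floor before the log2 scale was used.

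Promoter windows, taken from RefSeq on build GRCm38.p6, were searched for the letters of motifs known from macrophage gene control. Only windows that held a match are shown. The windows searched were those of 5 of the 10 genes, Axl, Cd5l, Cd68, Mertk and Timd4. A filter that dropped a single chromosome had come first, so that the source may hold windows of those of the 10 genes that lie on it. Each window runs from 250 bases before to 50 bases after the gene's start, 5′ to 3′ on the gene's strand. Capitals mark matches on either strand to GAGGAAG (PU.1 and related ETS factors), TGCTGAC (a MAF half-site) or GAAANNGAA (the core of the interferon-stimulated response element). The Axl window is chr7:25788684-25788983 on the minus strand, that of Cd5l chr3:87357631-87357930 on the plus strand and that of Timd4 chr11:46810549-46810848 on the plus strand.
Axl: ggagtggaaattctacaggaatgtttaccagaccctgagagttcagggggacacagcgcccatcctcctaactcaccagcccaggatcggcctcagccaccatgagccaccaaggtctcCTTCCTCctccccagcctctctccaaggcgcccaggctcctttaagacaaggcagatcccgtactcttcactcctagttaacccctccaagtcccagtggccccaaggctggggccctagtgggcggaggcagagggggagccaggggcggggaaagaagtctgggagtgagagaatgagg
Cd5l: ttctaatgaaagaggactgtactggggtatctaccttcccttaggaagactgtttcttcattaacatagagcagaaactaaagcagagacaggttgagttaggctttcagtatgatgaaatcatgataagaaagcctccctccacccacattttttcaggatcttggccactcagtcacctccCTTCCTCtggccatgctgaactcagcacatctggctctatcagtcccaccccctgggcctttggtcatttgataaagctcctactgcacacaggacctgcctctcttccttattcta
Timd4: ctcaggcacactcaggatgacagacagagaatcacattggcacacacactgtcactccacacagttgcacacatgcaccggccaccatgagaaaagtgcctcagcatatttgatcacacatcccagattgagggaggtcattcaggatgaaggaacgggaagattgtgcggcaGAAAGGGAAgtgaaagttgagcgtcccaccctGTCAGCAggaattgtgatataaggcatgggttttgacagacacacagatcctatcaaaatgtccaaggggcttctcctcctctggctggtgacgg
GAGGAAG was matched, as its reverse complement, in Axl and Cd5l, and 13.6% of all 32851 promoter windows held it. Timd4 held the interferon motif, present in 8.56% of windows, and the reverse complement of the MAF half-site, present in 4.67%, and these matches did not overlap. The windows of Cd68 and Mertk held none of these letters.

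**Figure D1:**
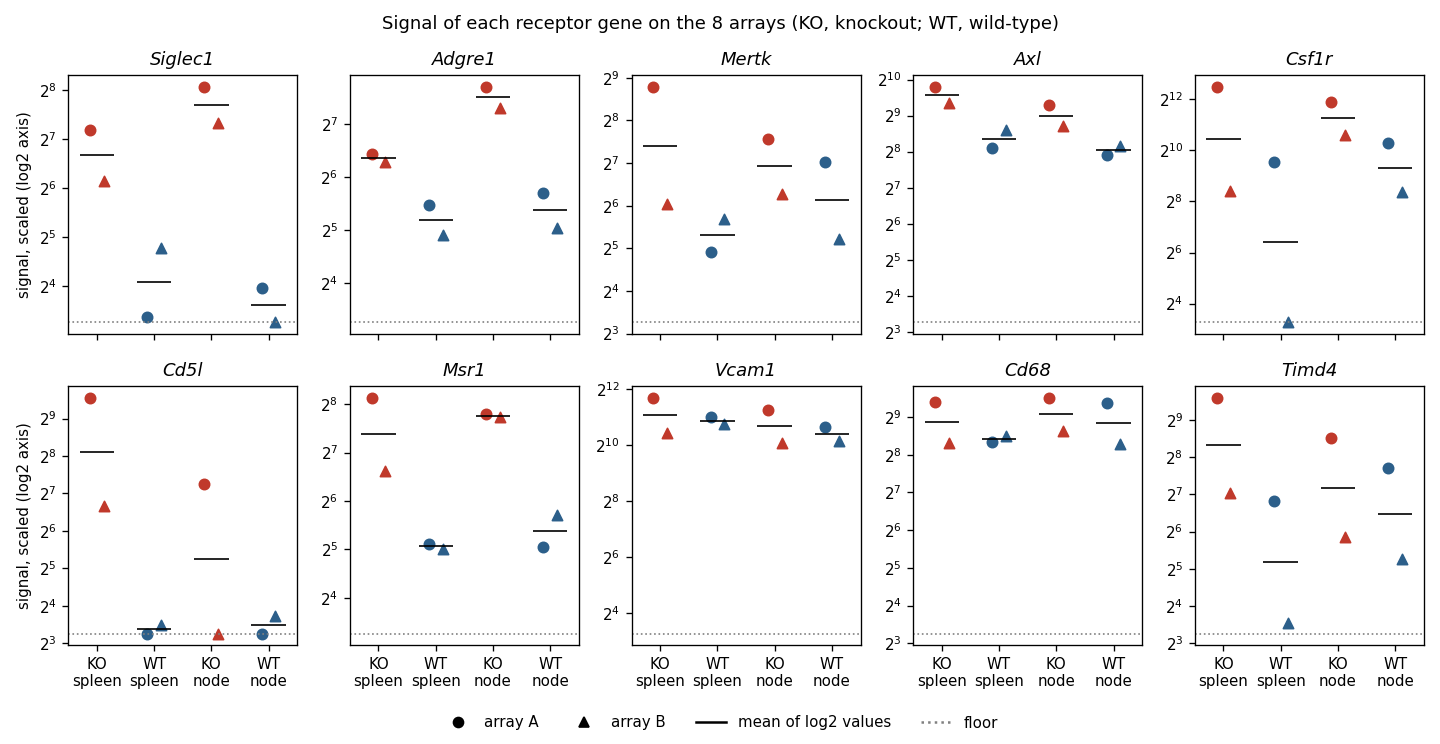
Signal of the brightest probe set of each of the 10 genes on the 8 arrays, on a log2 axis, with Aire-knockout arrays in red and wild-type arrays in blue, array A as a circle and B as a triangle, the mean of the log2 values as a bar and the floor of 9.58 as a dotted line. In Siglec1, Adgre1, Axl and Msr1 both knockout arrays lie above both wild-type arrays in each tissue, while in Csf1r and Timd4 array A lies above array B in all 4 groups.

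The question asked of these samples was which transcripts differ when Aire is deleted. The 10 genes fell into those whose knockout arrays all exceeded their tissue's wild-type arrays, namely Siglec1, Adgre1, Axl and Msr1, and the other 6, whose genotypes overlapped in at least 1 tissue. No gene of the 10, and none of the 11557 genes tested, passed a Benjamini-Hochberg adjusted p of 0.05 in any comparison. Each gene was represented by its brightest probe set, and differences are knockout minus wild-type on the log2 scale with their standard error (SE), from a limma fit over all 8 arrays. In bulk RNA, fewer cells of a type and less RNA per cell cannot be told apart.

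Siglec1 had signals of 146 and 70.5 on knockout spleen arrays A and B, against 10.4 and 27.4 on wild-type spleen arrays A and B. In lymph node it had 268 and 159 in knockout, against 15.7 and 2.28 in wild-type, the last of them under the floor. All 4 knockout arrays were above all 4 wild-type arrays, and the order of the group means was knockout lymph node, knockout spleen, wild-type spleen, wild-type lymph node. The wild-type arrays of spleen and lymph node overlapped, and the knockout arrays did not. The difference was 2.59 ± 0.61 (SE) in spleen (limma adjusted p = 0.373), a 6.0-fold higher level, and 4.07 ± 0.61 in lymph node (adjusted p = 0.528). Averaged over both tissues it was 3.33 ± 0.43 (adjusted p = 0.148), and 3.33 ± 0.48 (adjusted p = 0.263) where arrays of one genotype and letter were linked across tissues as a random block. The other Siglec1 probe sets, 1427668_at and 1427706_a_at, did not pass the filter on dim signals and differed by 0.40 and -1.42 in spleen and by 0.23 and 0.86 in lymph node, so the Siglec1 result rests on 1422161_at.

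Adgre1, which encodes F4/80, had 87.2 and 78.4 on knockout spleen arrays A and B, against 44.7 and 30.2 in wild-type spleen. In knockout lymph node it had 210 and 158, against 52.4 and 33.0 in wild-type lymph node. The groups did not overlap in either tissue, and the knockout arrays of lymph node were also above those of spleen. The difference was 1.17 ± 0.38 in spleen (2.25-fold, adjusted p = 0.497), 2.13 ± 0.38 in lymph node (4.38-fold, adjusted p = 0.615) and 1.65 ± 0.27 averaged over tissues (adjusted p = 0.203). Its single probe set gave the lowest SE among the genes that had no wild-type array above the filter level of 59.0.

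Axl, the receptor tyrosine kinase that binds Gas6, had 895 and 656 on knockout spleen arrays A and B, against 274 and 387 in wild-type spleen. In knockout lymph node it had 624 and 417, against 241 and 284 in wild-type lymph node. The groups did not overlap in either tissue, and Axl was measured above the filter level on all 8 arrays. The difference was 1.23 ± 0.37 in spleen (2.35-fold, adjusted p = 0.47) and 0.96 ± 0.37 in lymph node (1.95-fold, adjusted p = 1), and 1.10 ± 0.26 averaged over tissues (adjusted p = 0.358). The second Axl probe set, 1438621_x_at, was under the floor on every array and gives no difference.

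Msr1, a receptor for modified lipoproteins and other polyanions, had 281 and 98.7 on knockout spleen arrays A and B with its brightest probe set, against 34.8 and 32.1 in wild-type spleen. In knockout lymph node it had 221 and 213, against 33.1 and 52.7 in wild-type lymph node. Knockout arrays were again above all wild-type arrays, by 2.32 ± 0.52 in spleen (4.98-fold, adjusted p = 0.361), 2.38 ± 0.52 in lymph node (5.20-fold, adjusted p = 0.853) and 2.35 ± 0.37 averaged (adjusted p = 0.202). A further Msr1 probe set that passed the filter, 1422062_at, differed by 0.98 in spleen, where its groups overlapped, with 104 and 32.3 in knockout against 50.9 and 16.8 in wild-type, and by 3.31 in lymph node, where both wild-type arrays lay under the floor.

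**Figure D2:**
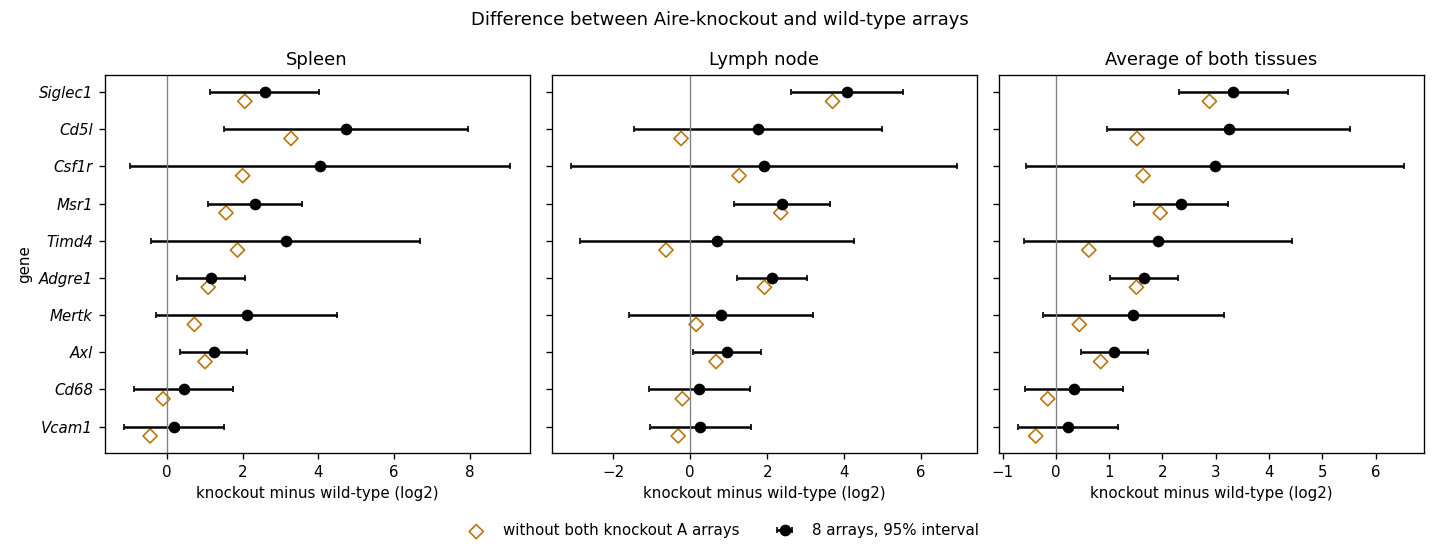
Knockout minus wild-type difference of each gene on the log2 scale in spleen, in lymph node and averaged over tissues (circles with 95% intervals from the fit over 8 arrays), and the same difference when both knockout A arrays are left out (diamonds). Without those arrays Siglec1, Msr1, Adgre1 and Axl are at 2.88, 1.96, 1.51 and 0.84 averaged over tissues, and Cd68 and Vcam1 lie below 0.

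Cd5l had 753 and 101 on knockout spleen arrays A and B, against 7.22 and 11.3 (the first under the floor) in wild-type spleen. In knockout lymph node it had 153 and 6.93, against 1.22 and 13.3 in wild-type lymph node. Both knockout spleen arrays were thus above both wild-type ones, while in lymph node array A alone was, and 3 of the 8 arrays lay under the floor. The difference was 4.73 ± 1.36 in spleen (adjusted p = 0.448) and 1.76 ± 1.36 in lymph node (adjusted p = 1). Without knockout array A of lymph node that tissue's difference was -0.24, and without B it was 3.76.

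Mertk had 444 and 65.4 on knockout spleen arrays A and B, against 30.4 and 51.4 in wild-type spleen. In knockout lymph node it had 189 and 77.6, against 131 and 37.1 in wild-type lymph node. The spleen groups did not overlap and the lymph node groups did, with wild-type array A above knockout array B. The difference was 2.11 ± 1.01 in spleen (adjusted p = 0.628), where it was 0.73 without knockout array A and 3.49 without B, and 0.80 ± 1.01 in lymph node (adjusted p = 1). The other kinase that binds Gas6, Axl, was above its wild-type arrays on both letters, while the Mertk value in spleen rested largely on array A.

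Timd4 had 775 and 132 on knockout spleen arrays A and B, against 113 and 11.6 in wild-type spleen. In knockout lymph node it had 365 and 57.6, against 208 and 38.3 in wild-type lymph node. Array A was above array B in every group, by 2.44 to 3.28 on the log2 scale, and the lymph node groups overlapped. The difference was 3.14 ± 1.5 in spleen (adjusted p = 0.627) and 0.70 ± 1.5 in lymph node (adjusted p = 1), and the lymph node value was -0.63 without knockout array A and -0.52 without wild-type array B. The spleen value was 1.87 without knockout array A, 1.5 without wild-type array B and 4.78 without wild-type array A.

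Csf1r was measured by several probe sets that gave unequal differences. Its brightest, 1419872_at, had 5798 and 337 on knockout spleen arrays A and B, against 738 and 1.16 in wild-type spleen, and 3834 and 1551 in knockout lymph node, against 1252 and 330 in wild-type lymph node. Its groups overlapped in spleen and not in lymph node. The spleen value of 1.16 was under the floor, while 1423593_a_at had 61.2 on the same array. The difference was 4.06 ± 2.12 in spleen (adjusted p = 0.663) and 1.92 ± 2.12 in lymph node (adjusted p = 1) by the brightest probe set, 2.93 and 1.26 by 1419873_s_at and 1.28 and 0.67 by 1423593_a_at. The spleen value by the brightest probe set was 0.92 without wild-type array B and 2.0 without knockout array A, 6.11 without knockout array B and 7.19 without wild-type array A. The lymph node value was 0.96 without wild-type array B and 1.27 without knockout array A. By 1423593_a_at both knockout spleen arrays, with 296 and 125, were above both wild-type ones, with 102 and 61.2, whereas the lymph node arrays overlapped, with 292 and 91.8 in knockout against 143 and 74.2 in wild-type.

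Cd68 and Vcam1, both measured on all 8 arrays, differed least. Cd68 had 677 and 318 on knockout spleen arrays A and B, against 326 and 358 in wild-type spleen, and 730 and 395 in knockout lymph node, against 666 and 312 in wild-type lymph node. Vcam1 had 3276 and 1367 in knockout spleen, against 2011 and 1714 in wild-type spleen, and 2403 and 1078 in knockout lymph node, against 1605 and 1118 in wild-type lymph node. By these brightest probe sets neither gene separated the genotypes in either tissue. The averaged difference was 0.34 for Cd68, with a 95% interval of -0.59 to 1.27 (adjusted p = 0.859), and 0.23 for Vcam1, with an interval of -0.71 to 1.16 (adjusted p = 0.913). The Vcam1 probe sets 1415989_at and 1451314_a_at differed on average by 0.54 and -0.27, so they had opposite signs. By 1451314_a_at both knockout lymph node arrays, with 153 and 123, were below both wild-type ones, with 192 and 180, a difference of -0.44.

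**Figure D3:**
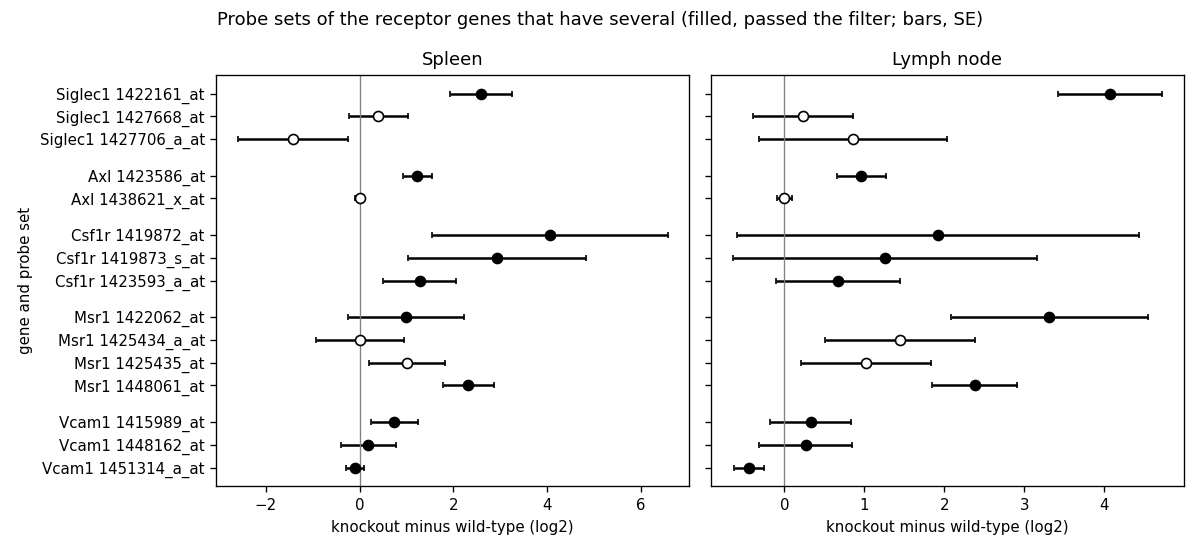
Knockout minus wild-type difference on the log2 scale, with its SE, for each probe set of the 5 genes that had several, in spleen and in lymph node; filled points passed the filter on dim signals. The Csf1r probe sets in spleen lie at 4.06, 2.93 and 1.28, and the dim Siglec1 probe set 1427706_a_at lies at -1.42.

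The counts over the 10 genes were read beside the same counts over all 11557 genes tested. In spleen 10 of 10 had a positive difference, with a median of 2.21, against 42.6% of all genes with a median of -0.09. In lymph node it was also 10 of 10, with a median of 1.36, against 46.8% and a median of -0.03, and averaged over tissues 10 of 10 with a median of 1.79, against 43.3% and a median of -0.06. All 10 passed the filter, but Siglec1, Adgre1, Cd5l and Msr1 were above its level on knockout arrays only, so that they could enter the test only through the group where they were high, and these counts are a description.

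By limma 0 of the 10 genes were called in spleen, in lymph node and on average, at a background of 0%. A trended robust prior also called 0 of the 10, and of all 11557 genes it called 1 in spleen, 0 in lymph node and 6 on average. At an unadjusted p under 0.05, the genes that were higher numbered 5 of 10 in spleen (Adgre1, Axl, Cd5l, Msr1 and Siglec1), where 3.86% of all genes were, 4 of 10 in lymph node (the same without Cd5l), where 1.74% were, and 5 of 10 on average, where 3.65% were. Both knockout arrays were above both wild-type arrays in spleen for 7 of 10, at a background of 13.3%, and in lymph node for 5 of 10, at a background of 14.6%. They were so in both tissues for 4 of 10, Siglec1, Adgre1, Axl and Msr1, at a background of 3.06%. Siglec1, Adgre1, Cd5l and Msr1 entered the test only through knockout arrays, where they were high, so these counts too are a description.

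The same test was asked whether the knockout difference was unlike in spleen and lymph node. By limma 0 of the 10 genes and 0% of all genes passed, and 0 of the 10 had an unadjusted p under 0.05. The spleen difference minus the lymph node difference was -1.49 ± 0.86 for Siglec1 and -0.96 ± 0.54 for Adgre1, and 2.97 ± 1.92 for Cd5l and 2.44 ± 2.12 for Timd4 (limma adjusted p = 0.999 for each). These intervals were wide, from -3.53 to 0.56 for Siglec1 and from -1.59 to 7.52 for Cd5l.

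Spleen was then compared with lymph node over both genotypes. Adgre1 was lower in spleen by a difference of -0.66 ± 0.27 (limma adjusted p = 0.458), with 87.2 and 78.4 in knockout spleen against 210 and 158 in knockout lymph node, and wild-type arrays that overlapped between tissues, with 44.7 and 30.2 in spleen against 52.4 and 33.0 in lymph node. The farthest from 0 was Csf1r at -1.87 ± 1.5 (adjusted p = 0.72). Axl at 0.45 ± 0.26 (adjusted p = 0.592), Vcam1 at 0.43 ± 0.40 and Cd5l at 1.36 ± 0.96 were positive, 3 of 10 genes, where 55.7% of all genes were. By limma 0 of the 10 and 0% of all genes passed, and 1 of 10, Adgre1, was lower at an unadjusted p under 0.05, where 4.52% of all genes were. The median over the 10 genes was -0.22, beside 0.06 over all genes.

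With a single array of each letter in a group, the spread within a group is its difference between arrays A and B. The direction of this difference was not shared by all groups. Array A was above array B for 10 of 10 genes in knockout spleen, 5 of 10 in wild-type spleen, 10 of 10 in knockout lymph node and 7 of 10 in wild-type lymph node, where 58.7%, 45.1%, 47.7% and 39.3% of all genes were. The median A minus B over the 10 genes was 1.38, -0.01, 1.02 and 0.69 in that order of groups. Adgre1, Csf1r, Timd4 and Vcam1 were higher on A in all 4 groups, 4 of 10 genes at a background of 8.05%. Averaged over the groups the letters differed by 3.40 for Csf1r and 2.73 for Timd4, and by 0.07 for Axl, 0.25 for Msr1, 0.28 for Siglec1 and 0.45 for Adgre1. For Axl, Msr1 and Siglec1 the sign was not the same in all groups, so that these means understate the spread: Siglec1 was at 1.05 and -1.39 in knockout and wild-type spleen and at 0.75 and 0.71 in knockout and wild-type lymph node.

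**Figure D4:**
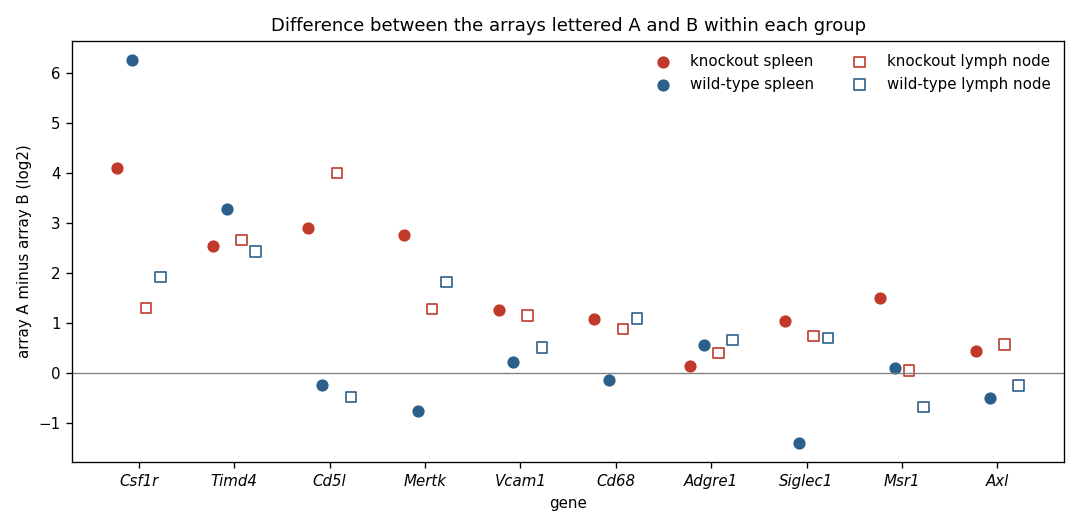
Array A minus array B on the log2 scale for each gene within each of the 4 groups, ordered by the mean over groups; circles are spleen, squares lymph node, red knockout and blue wild-type. Csf1r and Timd4 lie above 1 in all groups, and Axl lies between -0.50 and 0.58.

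With both knockout A arrays left out, which sets 1 knockout array per tissue against 2 wild-type arrays and takes its spread from the wild-type pairs, the averaged difference was 2.88 ± 0.50 for Siglec1, 1.96 ± 0.32 for Msr1, 1.51 ± 0.36 for Adgre1 and 0.84 ± 0.31 for Axl. The sign of these values was fixed beforehand, as all knockout arrays of these genes exceeded their tissue's wild-type arrays. For the other genes the averaged difference was 1.64 for Csf1r, 1.52 for Cd5l, 0.62 for Timd4, 0.44 for Mertk, -0.15 for Cd68 and -0.38 for Vcam1. The limma adjusted p ran from 0.425 to 0.976 over the 10 genes.

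Markers of other cell types followed the 10 genes on some arrays and not on others. The mean log2 signal of the 10 genes was 9.31 and 7.53 on knockout spleen arrays A and B, against 6.59 and 5.85 in wild-type spleen, and 8.88 and 7.57 in knockout lymph node, against 7.09 and 6.32 in wild-type lymph node. B cell markers, 5 of 6 measured, were at 8.13 and 5.42 in knockout spleen, against 7.06 and 5.96 in wild-type spleen, and at 6.23 and 5.56 in knockout lymph node, against 5.58 and 5.08 in wild-type lymph node. Plasma cell markers, 5 of 5 measured, were at 9.09 and 7.03 in knockout spleen, against 7.88 and 6.73 in wild-type spleen, and at 7.39 and 6.75 in knockout lymph node, against 7.05 and 5.66 in wild-type lymph node. Array A was thus above B in every group for both lists, as it was for Timd4, but on knockout spleen array B, where the mean of the 10 genes exceeded both wild-type spleen arrays, the B cell list was below both of them and the plasma cell list below wild-type array A.

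Cell cycle genes, 8 of 8 measured, were at 8.83 and 7.14 in knockout spleen, against 6.26 and 6.42 in wild-type spleen, and at 8.20 and 7.13 in knockout lymph node, against 6.71 and 5.64 in wild-type lymph node. Monocyte markers, 3 of 5 measured, were at 5.71 and 5.25 in knockout spleen, against 4.27 and 5.16 in wild-type spleen, and at 6.37 and 6.04 in knockout lymph node, against 4.90 and 5.64 in wild-type lymph node. The means of both lists had the knockout arrays above the wild-type arrays in each tissue. Among the measured monocyte genes, Ccr2 and Vcan did not pass the filter. Vcan overlapped between genotypes in both tissues, and Ccr2 overlapped in spleen but was higher on both knockout arrays in lymph node. The monocyte gene tested, F13a1, a coagulation factor subunit also made by macrophages, had an averaged difference of 1.70 ± 0.28 (adjusted p = 0.203).

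Platelet and megakaryocyte markers, 4 of 4 measured, were at 7.58 and 5.14 in knockout spleen, against 4.89 and 4.01 in wild-type spleen, and at 5.87 and 5.57 in knockout lymph node, against 5.77 and 4.90 in wild-type lymph node. The platelet chemokine Pf4 was at an averaged difference of 3.28 ± 0.71 (limma adjusted p = 0.327). Gp9, the other tested gene of this list, was at 0.27 ± 0.55. It overlapped in spleen, with 61.8 and 27.3 in knockout against 83.8 and 17.2 in wild-type. In lymph node it had 68.8 and 39.2 against 38.1 and 39.1. Ppbp and Itga2b did not pass the filter. Epithelial markers went the other way, with 4 of 5 tested genes at a negative averaged difference and a median of -0.81. Blood endothelial markers, a further source of Vcam1, were at 5.99 and 5.40 in knockout spleen, against 5.8 and 5.79 in wild-type spleen, and at 5.14 and 4.57 in knockout lymph node, against 4.61 and 4.82 in wild-type lymph node. Reticular fibroblast markers were at 4.37 and 4.43 in knockout spleen, against 4.65 and 5.42 in wild-type spleen, and at 5.51 and 5.81 in knockout lymph node, against 5.49 and 4.57 in wild-type lymph node. The endothelial list overlapped between genotypes in both tissues, and the reticular list was lower on both knockout arrays in spleen and higher on both in lymph node. The part of these cells in the values of the 10 genes was not tested. With the mean log2 signal of the Y-linked genes as a covariate, 10 of 10 differences were positive in each tissue, and the averaged difference was 3.34 for Siglec1, 2.30 for Msr1, 1.94 for Adgre1 and 1.03 for Axl. It was 4.84 for Csf1r and 3.39 for Timd4, which moved most, and 0 of the 10 genes passed adjustment.

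**Figure D5:**
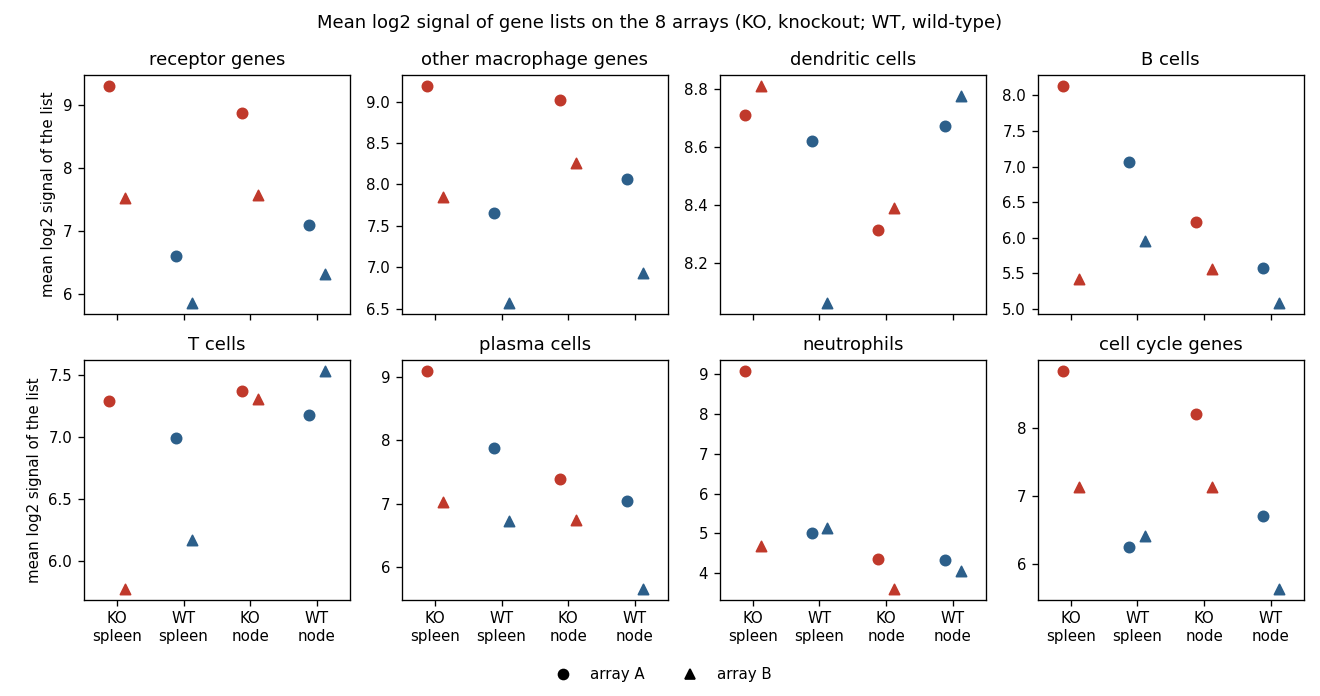
Mean log2 signal of the 10 receptor genes and of 7 marker or gene lists on each array, with knockout in red, wild-type in blue, array A as a circle and B as a triangle; each panel has its own axis. Knockout array A of spleen is highest for the receptor genes (9.31), B cells (8.13), plasma cells (9.09) and neutrophils (9.06), while the dendritic cell list spans 8.06 to 8.81.

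Other macrophage genes had mostly positive differences. Of 20 listed and measured genes 18 were tested, and 13 had a positive and 5 a negative averaged difference, with a median of 1.69. At a limma unadjusted p under 0.05, 6 were higher and 0 lower, and 0 passed adjustment. Of all genes tested 43.3% had a positive averaged difference and 3.65% were higher at that p, which also stands beside the lists below. Fcgr1 and Cd14, and Lrp1 and Itga9 of the lists below, were above the filter level of 59.0 on knockout arrays only. These genes thus entered the test through the group where they were high, as Scara3 did through wild-type arrays, so the counts are a description. Fcgr1, the high-affinity receptor for IgG, had 157 and 63.1 in knockout spleen against 2 wild-type arrays at the floor, and 494 and 152 in knockout lymph node, against 16.8 and 24.8 in wild-type lymph node, a fitted averaged difference of 3.56 ± 0.47 with the floor as the wild-type spleen value (adjusted p = 0.148). Mrc1, the mannose receptor, differed by 3.13 ± 0.76, Apoe, an apolipoprotein made by macrophages, by 2.30 ± 0.66, and Cd14, the co-receptor for lipopolysaccharide, by 1.37 ± 0.38. The genotypes did not overlap in either tissue for Mrc1. They overlapped in lymph node for Apoe, with 365 and 123 in knockout against 185 and 40.4 in wild-type. For Cd14 they overlapped in spleen, with 34.6 and 51.2 in knockout against 37.9 and 17.6 in wild-type. The 5 negative values were -0.61 for Spic, -0.42 for Mpeg1, -0.40 for Marco, -0.15 for Tyrobp and -0.07 for Aif1.

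The genes that recognise phosphatidylserine and take up dying cells with Mertk, Axl and Timd4 gave smaller values. All 17 were tested, 13 with a positive and 4 with a negative averaged difference and a median of 0.32; 3 were higher and 1 lower at an unadjusted p under 0.05, and 0 passed adjustment. The inhibitory receptor Havcr2 (Tim-3) had an averaged difference of 1.80 ± 0.29, made of 3.42 in spleen, with 131 and 95 in knockout against 11.4 and the floor in wild-type, and 0.18 in lymph node, where the genotypes overlapped. The fatty acid and apoptotic cell receptor Cd36 differed by 1.95 ± 0.45 on average and the endocytic receptor Lrp1 by 1.10 ± 0.40. Mfge8, a bridging protein between phosphatidylserine and integrins, was at -0.65 ± 0.24, with 3231 and 2651 in knockout spleen, against 4427 and 4940 in wild-type spleen.

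The ligands of Csf1r and transcription factors of macrophages had 6 positive and 6 negative averaged differences among 12 tested genes, with a median of 0.11, 2 higher and 1 lower at an unadjusted p under 0.05, and 0 past adjustment. Runx1 was at 1.68 ± 0.47, with 3.26 in spleen but 0.10 in lymph node, the sterol receptor Nr1h3 (LXR alpha) at 1.59 ± 0.62, Id3 at -0.73 ± 0.26 and Spic, the factor of red pulp macrophages, at -0.61 ± 0.29. Other scavenger receptors had 6 positive and 5 negative values among 11 tested, with a median of 0.19, and Scara3 and Stab1, a scavenger receptor of sinusoidal cells and macrophages, were at -1.56 ± 0.52 and -0.62 ± 0.34. The relatives of Msr1 therefore did not share one sign.

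Relatives and partners of the remaining genes were as follows. The Siglec list had 5 positive values among 5 tested, with a median of 0.63 and 0 at an unadjusted p under 0.05, among them Siglech at 1.46 ± 0.75, with 3.22 in spleen but -0.30 in lymph node, and Cd22, an inhibitory receptor of B cells, at 1.44 ± 0.91. Partners and relatives of Vcam1 had 4 positive and 3 negative values among 7 tested, with Itga9, an integrin subunit that binds Vcam1, at 1.97 ± 0.76 and Itga4, its main integrin partner subunit, at -0.42 ± 0.31. The lysosomal membrane proteins related to Cd68 had 1 positive and 3 negative values among 4 tested, and lay between -0.36 for Scarb2 and 0.12 for Lamp2. Of the adhesion G protein-coupled receptors related to Adgre1, 3 were tested, Adgrl1 at 0.60 ± 0.44, Adgre5 at 0.01 ± 0.22 and Adgre4 at -0.00033 ± 0.75. None of these genes passed adjustment.

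Genes whose profile lay nearest to the mean profile of the 10 were sought among 10976 other named genes, by the mean absolute difference of log2 values over the 8 arrays after each was centred on its own mean. The nearest were Ifrd2 (0.25), Klhl6 (0.26), Stmn1 (0.28), the growth factor Igf1 (0.30) and Cip2a (0.31). Igf1 had 772 and 283 in knockout spleen, against 105 and 43.7 in wild-type spleen, and 680 and 189 in knockout lymph node, against 204 and 73.0 in wild-type lymph node. Among the 10 genes themselves Vcam1 and Cd68 lay nearest to each other at 0.37, Msr1 and Adgre1 to each other at 0.50, and Msr1 was also the nearest to Siglec1, at 0.67. Csf1r was 1.02 from its nearest gene, Timd4.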

How the data were processed

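Total RNA of 8 samples was measured on Affymetrix arrays. The intensity values deposited by the authors are 1 linear signal per probe set, from MAS5 per the submitters' processing notes (version: not given in the sources used here). Each array's 2% trimmed mean was 250, so arrays had been scaled. Control probe sets were left out (64 of 45101); 34945 of the others carried 1 gene symbol, 932 several and 9160 none, and 34741 were matched to current symbols through RefSeq gene IDs. Array medians spanned 0.28 (log2), above the tolerance of 0.2, and were made equal. Signals were raised to the 20th percentile, 9.58. A gene was its probe set with the highest mean. Genes above the pooled median of 59.0 on at least 2 arrays were tested across all genes with limma 3.58.1 in R 4.3.3: group means, empirical Bayes (4 residual and 2.96 prior degrees of freedom), two-sided, Benjamini-Hochberg adjustment, intervals at 95%. The fit was tested on simulated data.

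Genes named are the 10 receptors, Aire, up to 4 genes per list with the smallest p for the averaged knockout difference, and the 5 nearest profiles. Ccr7, Fscn1, Zbtb46, Cd209a, Flt3, Xcr1, Xist, Eif2s3y, F13a1 and Pf4 were chosen after their values were seen. The same holds for Ccr2, Vcan, Gp9, Ppbp, Itga2b, Mpeg1, Marco, Tyrobp and Aif1. The members and lists were chosen with earlier results of these data known. Alternatives covered scaling, floor, filter, probe sets, prior, blocks, a Y-linked covariate and arrays left out. The labels do not say whether arrays of a group came from separate animals, so p-values describe the spread among these samples alone, which may be technical. The number of arrays limits the precision.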

Additional observations from a re-analysis of the deposited data

How the results depend on the processing

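Under the 26 alternatives 0 of the 10 genes were called in any comparison, and the lowest adjusted p was 0.0992, for Msr1 averaged over tissues without knockout spleen array B. Outside the 10, some settings called genes, at most 48 of 11557, for spleen minus lymph node with the trended robust prior. With the letter as a replicate block 0 of the 10 were called as well. Arrays that share a letter deviated together with correlations across genes of 0.0554 to 0.306, the highest between knockout spleen and knockout lymph node. The labels name no shared source, so the letters are not taken to pair the samples. Arrays of one genotype and letter were however alike across tissues in Xist, with 14.6 and 23.1 on the knockout B arrays of spleen and lymph node. The mean log2 signal of sex-linked genes in spleen and lymph node was 9.12 and 8.64 on knockout A and 7.77 and 8.23 on knockout B arrays. It was 6.32 and 6.16 on wild-type A and 9.43 and 9.64 on wild-type B arrays. Whether arrays of one genotype and letter share a source was not tested. With genotype and letter as a random block (correlation 0.187) 0 of the 10 genes were called, and the lowest averaged adjusted p was 0.263. Siglec1, Msr1, Adgre1 and Axl kept a positive difference in both tissues and on average under every alternative that gave a value. All their knockout arrays exceeded their tissue's wild-type arrays, so the alternatives that left out arrays could not turn these signs. With the mean of probe sets as the gene's value, Siglec1 and Msr1 did not pass the filter, and with the stricter filter Cd5l did not.

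Signs turned for these values. Without both knockout A arrays Vcam1 was at -0.44 in spleen, -0.31 in lymph node and -0.38 on average, Cd68 at -0.10, -0.21 and -0.15, and in lymph node Cd5l at -0.24 and Timd4 at -0.63. Leaving out 1 array at a time gave ranges in spleen of -0.44 to 0.82 for Vcam1 and -0.10 to 0.99 for Cd68. In lymph node the ranges were -0.11 to 1.71 for Mertk, -0.24 to 3.76 for Cd5l, -0.31 to 0.84 for Vcam1, -0.31 to 0.78 for Cd68 and -0.63 to 2.03 for Timd4, and on average -0.089 to 0.54 for Vcam1.

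For the difference between the tissues' knockout effects, Msr1 was at 0.0096 without a median shift, and Vcam1 at 0.026 with quantile normalization and 0.23 with the mean of probe sets. With 1 array left out the ranges were -0.072 to 2.69 for Mertk, -0.019 to 0.56 for Axl, -1.0 to 5.27 for Csf1r, -0.82 to 0.69 for Msr1, -0.71 to 0.55 for Vcam1 and -0.34 to 0.75 for Cd68. For spleen minus lymph node, Siglec1 was at 0.24 with no floor and 0.46 on wild-type arrays only, Cd5l at -0.12 on wild-type arrays only, Mertk at 0.49 on knockout arrays only, and Timd4 at 0.32 with the floor at the 40th percentile, 0.037 with a pseudocount and 1.14 on knockout arrays only. With 1 array left out these ranges were -0.63 to 0.066 for Siglec1, -0.85 to 0.53 for Mertk, -0.73 to 0.025 for Msr1 and -0.90 to 0.74 for Timd4. The cause of these changes was not tested.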
